A study of Mus musculus with 20 samples.

Results

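Granzymes are serine proteases that cytotoxic T cells and NK cells store in granules, and perforin is the pore-forming protein that lets them into a target cell. The mouse genes fall into separate groups: Gzmb, Gzmc, Gzmd, Gzme, Gzmf and Gzmg lie together on chromosome 14 beside Atp12a, Gzma and Gzmk lie on chromosome 13, and the perforin gene Prf1 lies on chromosome 10. Atp12a encodes the catalytic subunit of the non-gastric proton and potassium pump of epithelia and is no granule gene. These 10 genes were taken by symbol from the array annotation, which gave 12 probe sets that carry exactly 1 of the symbols, of 45037 probe sets and 18193 genes in all. The genes were chosen by the knockout minus wild-type difference of these same arrays, in particular that of Gzmb, Gzmc and Atp12a, so the knockout minus wild-type values of these genes are a description with no test.

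The genes were followed in medullary thymic epithelial cells (MECs) that had been sorted as CD45-G8.8+Ly51int class II high from the thymi of male mice aged 3 to 4.5 weeks. Each array holds the RNA of 1 mouse. Knockout (KO) mice for Aire and wild-type (WT) mice were given on 3 backgrounds, with 3 KO and 3 WT mice labelled B6, 4 KO and 4 WT labelled BALB, and 3 KO and 3 WT labelled NOD. The labels do not describe the Aire allele, the substrains or any other treatment.

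Aire is a transcriptional regulator of these epithelial cells and is known for raising, in the thymus, genes whose products are otherwise made in peripheral tissues, so that developing T cells meet those products. Genes that depend on it often lie in clusters, and a single epithelial cell is known to express few of them at a time. Granzymes and perforin are best known from lymphocytes rather than from epithelium.

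Values are log2 of the deposited RMA intensity of a probe set, so a difference of 1 is a 2-fold difference. Each array's precision is that of 1 hybridisation, and the number of mice per group limits every comparison. In the whole data set the log2 intensities had a median of 6.48, 25% of them lay under 5.23 and 5% under 3.77. No level of one probe set is set against that of another. Because these are bulk samples, fewer cells that express a gene and less RNA per cell cannot be told apart. The probe set of Aire read higher in KO MECs (11.46 against 10.73, averaged over strains), so it checks nothing about the genotype. Arrays of 1 KO and 1 WT mouse of the same number deviated together in BALB and NOD but not in every B6 pair. In a 3' to 5' Gapdh difference, 3 B6 arrays (KO mice 2 and 3, WT mouse 2) stood apart at 1.68 to 1.90. The other arrays read 2.15 to 3.04, except B6 WT mouse 1, which read highest at 3.76.

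The start regions of the genes are shown because they tell the close copies among the members from the others. RefSeq windows of GRCm38.p6, 250 bases before the gene start and 50 after it, were found for 9 of the 10 genes, and Atp12a is named only. Gzmb (chr14:56262285-56262584, minus strand) and Gzmc (chr14:56234608-56234907, minus strand) are printed as the granzymes with the widest KO difference, Gzmd (chr14:56132544-56132843, minus strand) as an example of the near-identical group, and Gzmn (chr14:56174550-56174849, minus strand) as the granzyme inside the same cluster that did not pass the test. Gzma (chr13:113100932-113101231, minus strand) and Prf1 (chr10:61297586-61297885, plus strand) stand for the granule genes elsewhere. Capitals mark matches to the 4 motifs searched on both strands, each given below, and a match on the opposite strand is printed as its reverse complement.
Gzmb: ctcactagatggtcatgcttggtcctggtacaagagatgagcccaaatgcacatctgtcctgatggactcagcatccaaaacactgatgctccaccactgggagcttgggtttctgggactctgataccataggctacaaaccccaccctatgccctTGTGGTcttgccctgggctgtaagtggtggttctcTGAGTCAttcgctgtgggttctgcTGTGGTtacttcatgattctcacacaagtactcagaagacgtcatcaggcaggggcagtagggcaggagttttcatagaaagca
Gzmc: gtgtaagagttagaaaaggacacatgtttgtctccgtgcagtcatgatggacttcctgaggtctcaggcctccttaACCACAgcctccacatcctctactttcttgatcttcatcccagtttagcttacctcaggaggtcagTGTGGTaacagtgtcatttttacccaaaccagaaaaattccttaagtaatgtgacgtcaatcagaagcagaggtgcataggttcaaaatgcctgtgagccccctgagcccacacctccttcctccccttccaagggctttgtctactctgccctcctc
Gzmd: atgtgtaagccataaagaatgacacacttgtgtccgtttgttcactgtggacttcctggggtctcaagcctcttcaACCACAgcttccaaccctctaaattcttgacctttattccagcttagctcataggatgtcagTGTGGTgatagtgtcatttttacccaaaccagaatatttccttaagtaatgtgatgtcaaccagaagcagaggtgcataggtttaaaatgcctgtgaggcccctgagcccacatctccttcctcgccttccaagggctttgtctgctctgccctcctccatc
Gzmn: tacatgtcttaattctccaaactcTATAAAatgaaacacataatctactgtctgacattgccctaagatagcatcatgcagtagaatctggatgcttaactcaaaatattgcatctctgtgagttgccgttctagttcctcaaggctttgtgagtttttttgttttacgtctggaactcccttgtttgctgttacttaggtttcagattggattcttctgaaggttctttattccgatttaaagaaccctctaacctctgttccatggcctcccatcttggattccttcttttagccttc
Gzma: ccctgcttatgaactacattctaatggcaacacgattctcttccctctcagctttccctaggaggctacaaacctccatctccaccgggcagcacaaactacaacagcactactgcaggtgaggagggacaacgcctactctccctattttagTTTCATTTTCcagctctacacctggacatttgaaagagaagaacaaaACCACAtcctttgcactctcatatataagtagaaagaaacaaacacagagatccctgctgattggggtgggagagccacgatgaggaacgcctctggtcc
Prf1: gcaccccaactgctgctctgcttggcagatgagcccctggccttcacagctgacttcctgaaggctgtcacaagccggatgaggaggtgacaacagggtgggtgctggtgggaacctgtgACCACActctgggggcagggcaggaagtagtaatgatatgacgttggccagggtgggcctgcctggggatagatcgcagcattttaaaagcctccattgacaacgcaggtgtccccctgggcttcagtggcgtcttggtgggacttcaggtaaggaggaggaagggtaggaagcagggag

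The windows of Gzmc, Gzmd, Gzme, Gzmf and Gzmg shared between 86.1% (Gzmc with Gzmd) and 94.0% (Gzmd with Gzme) of their aligned bases. Against these 5, the window of Gzmb shared between 54.2% and 63.2%, and that of Gzmn between 57.9% and 64.5%. These lower figures lay near those between windows of different chromosomes, such as 59.7% for Gzma with Prf1. The Runx motif TGTGGT, which 16.761% of 32851 RefSeq windows hold on either strand, occurred once on each strand in each of the 5 alike windows. In Gzmb it occurred at 2 places on the plus strand, 93 and 34 bases before the start. Single matches on the opposite strand lay 50 bases before the start of Gzma and 130 before that of Prf1. The AP-1 motif TGANTCA, present in 7.808% of windows, matched once in Gzmb, 58 bases before the start. TATAAA, present in 13.616%, matched only in Gzmn among the windows of the 9 members and Gzmn, and the core of the interferon response element, present in 3.443%, matched only in Gzma. The motifs do not overlap in these windows, and Gzmk held none of them. A match describes the letters of a window and does not show binding.

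Gzmb, which cleaves its targets after aspartate and starts apoptosis in the target cell, was the granzyme with the widest difference. In B6 it read 6.47, 6.91 and 6.82 in KO MECs, against 8.90, 9.09 and 8.75 in WT MECs. In BALB it read 7.01, 6.69, 6.43 and 6.66 in KO MECs, against 9.60, 9.32, 9.06 and 8.36 in WT MECs. In NOD it read 6.60, 6.30 and 6.68 in KO MECs, against 8.99, 8.57 and 8.87 in WT MECs. All 10 KO values lay below all WT values of their strain, and the lowest WT mouse of any strain, BALB mouse 4, still read 8.36. The averaged difference was -2.28 ± 0.13 (SE), which is 4.87-fold lower, with -2.18 in B6, -2.39 in BALB and -2.29 in NOD. The KO mean of Gzmb was 6.65, beside a median of 6.48 over all values, which does not tell whether Gzmb was still expressed in KO MECs.

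Gzmc, the next gene of the cluster and a granzyme whose substrates are less well known, differed by strain in its WT level. In B6 it read 4.21, 4.09 and 3.96 in KO MECs, against 6.01, 6.01 and 6.09 in WT MECs. In BALB it read 4.22, 4.09, 4.12 and 4.10 in KO MECs, against 5.09, 5.12, 5.70 and 4.62 in WT MECs. In NOD it read 4.25, 4.25 and 4.14 in KO MECs, against 7.20, 6.14 and 6.18 in WT MECs. The KO mice of the 3 strains lay within 3.96 to 4.25, while WT mice ran between 4.62 and 7.20, and no KO and WT mouse of a strain overlapped. The averaged difference was -1.75 ± 0.13 (SE), or 3.35-fold lower, with -1.95 in B6, -1.0 in BALB and -2.29 in NOD.

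Atp12a lies directly after Gzmb in the gene order and encodes an ion pump, and it too was lower in KO MECs of each strain. In B6 it read 5.61, 5.71 and 5.59 in KO MECs, against 8.32, 7.93 and 7.91 in WT MECs. In BALB it read 5.91, 5.60, 5.87 and 6.31 in KO MECs, against 7.82, 8.39, 7.21 and 7.41 in WT MECs. In NOD it read 5.39, 5.88 and 5.76 in KO MECs, against 7.38, 7.77 and 7.45 in WT MECs. The genotypes did not overlap in any strain, and the highest KO value, 6.31 in BALB mouse 4, lay below the lowest WT value of any strain, 7.21. The averaged difference was -2.02 ± 0.13 (SE), or 4.06-fold lower, with -2.42 in B6, -1.79 in BALB and -1.86 in NOD.

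**Figure D1:**
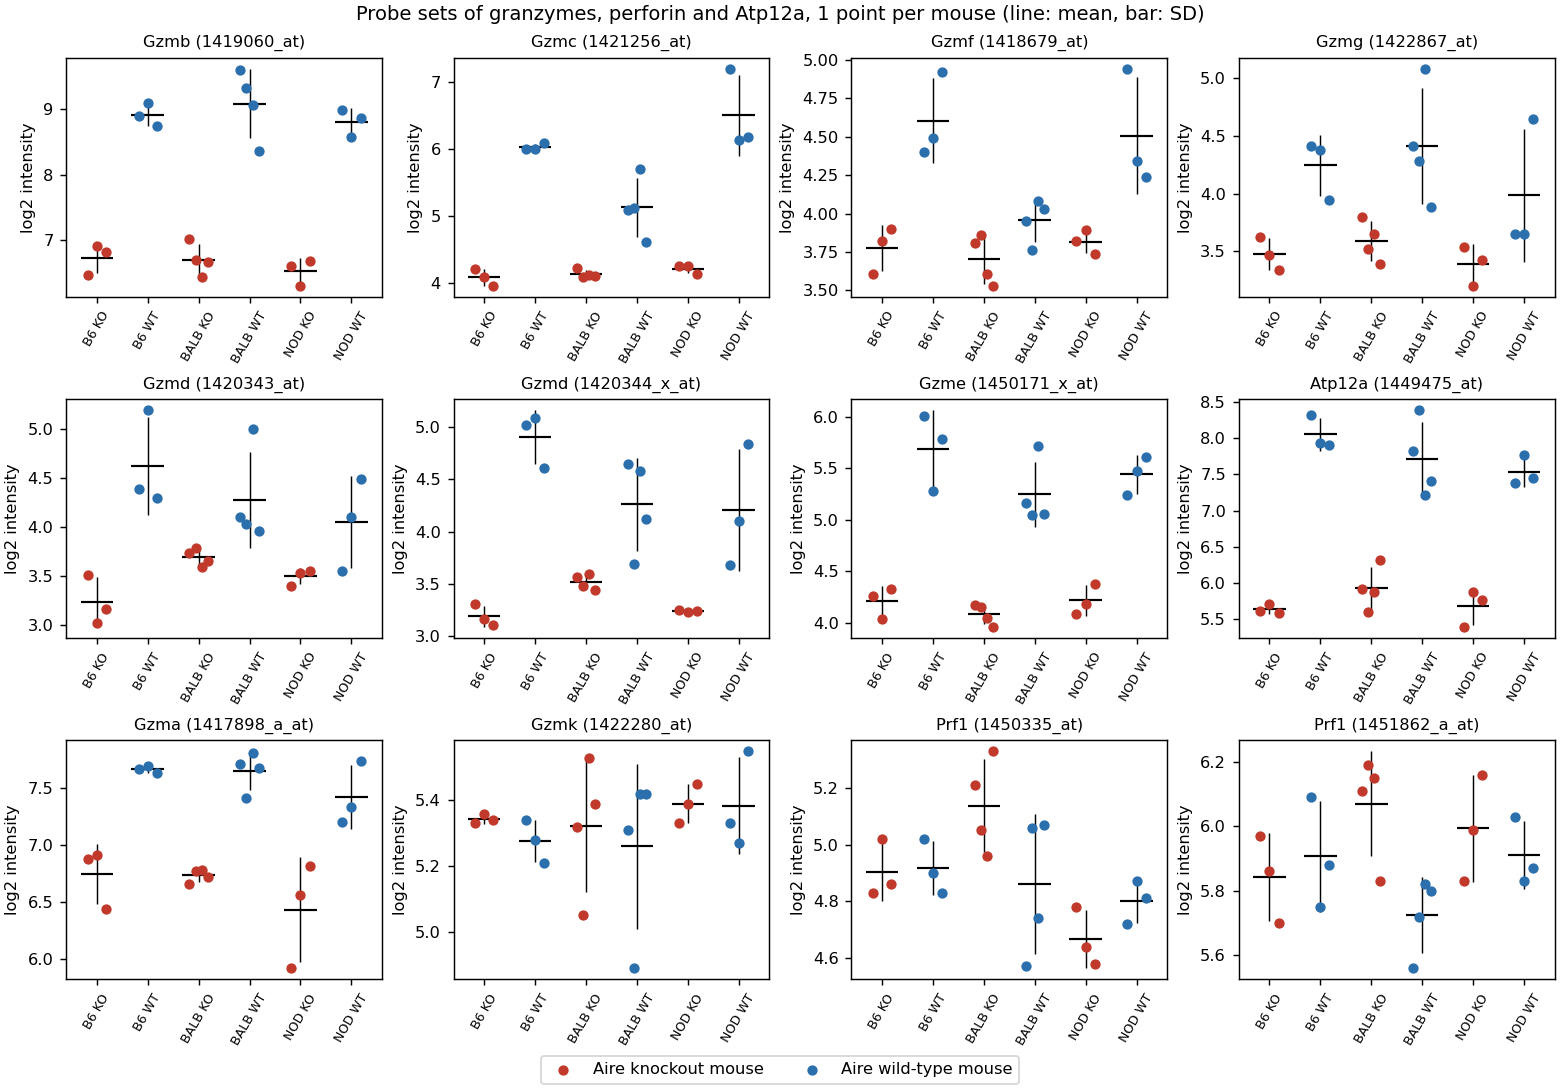
Log2 intensity (vertical axes, each with its own range) of the 12 probe sets in B6, BALB and NOD mice, KO in red left of WT in blue, 1 point per mouse, with the group mean as a line and its SD as a bar. Gzmb, Gzmc, Gzmd, Gzme, Gzmg, Atp12a and Gzma show no overlap of KO and WT within a strain, Gzmf overlaps in BALB, and no strain has all KO mice below all WT mice for Gzmk or Prf1.

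The 4 granzymes at the other end of the cluster, Gzmd, Gzme, Gzmf and Gzmg, are rodent genes of the same protease family that are known from activated lymphocytes and from NK cells of the pregnant mouse uterus. All lay in the dim part of the scale. Gzme, which showed the widest averaged difference of these 4 genes, read 4.04 to 4.33 in B6 KO, 3.96 to 4.17 in BALB KO and 4.09 to 4.38 in NOD KO MECs, against 5.28 to 6.01 in B6 WT, 5.05 to 5.71 in BALB WT and 5.24 to 5.61 in NOD WT MECs. Its averaged difference was -1.29 ± 0.10 (SE), with -1.48 in B6, -1.16 in BALB and -1.23 in NOD. Gzmd had one probe set with -0.84 ± 0.15 and one with -1.15 ± 0.14, both widest in B6 (-1.39 and -1.72). With the second probe set Gzmd read 3.10 to 3.30 in B6 KO, 3.44 to 3.59 in BALB KO and 3.23 to 3.25 in NOD KO MECs, against 4.61 to 5.09 in B6 WT, 3.69 to 4.65 in BALB WT and 3.68 to 4.84 in NOD WT MECs. In NOD the highest KO value and the lowest WT value of its first probe set both round to 3.55.

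Gzmg read 3.20 to 3.80 over the KO mice, against 3.65 to 5.08 over the WT mice, and differed by -0.73 ± 0.15 (SE), with no overlap within a strain. Gzmf differed by -0.59 ± 0.09 (SE), and it was the one member of the chromosome 14 group whose genotypes overlapped. In BALB it read 3.81, 3.86, 3.61 and 3.53 in KO MECs, against 3.95, 3.76, 4.08 and 4.03 in WT MECs. In B6 it read 3.61 to 3.90 in KO MECs, against 4.40 to 4.92 in WT MECs, and in NOD 3.74 to 3.89 in KO MECs, against 4.24 to 4.94 in WT MECs. KO means of Gzmd (3.47 and 3.31), Gzmf (3.77) and Gzmg (3.48) lay at or under the value below which 5% of all values fall, so the log2 differences of these probe sets understate a change wherever background remains in the intensity. With 16 intensity units added before log2, the averaged differences were -1.19 for Gzmc, -0.82 for Gzme, -0.42 and -0.57 for Gzmd, -0.31 for Gzmf and -0.36 for Gzmg. The added units keep the order of the mice, so the sign could not change where the genotypes did not overlap. Only the sizes tell something here.

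The sequences of Gzmd, Gzme, Gzmf and Gzmg are so alike that their probe sets may share signal, and the x in a probe set's name marks probes that can also bind other transcripts. A probe set annotated to both Gzme and Gzmd was left out by the choice of single symbols. It read 3.56 to 4.07 in KO MECs, against 5.17 to 6.60 in WT MECs, so the shared probes ran with the single-gene ones. Counts over the 12 probe sets therefore include 5 that may share signal.

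Gzma, a protease of the tryptase type that lies on chromosome 13, was also lower. In B6 it read 6.88, 6.91 and 6.44 in KO MECs, against 7.67, 7.69 and 7.63 in WT MECs. In BALB it read 6.66, 6.77, 6.78 and 6.72 in KO MECs, against 7.71, 7.41, 7.81 and 7.68 in WT MECs. In NOD it read 5.92, 6.56 and 6.82 in KO MECs, against 7.20, 7.33 and 7.74 in WT MECs. Again all 10 KO mice lay below the WT mice of their strain, and the strain differences were close to each other, with -0.92 in B6, -0.92 in BALB and -0.99 in NOD and an average of -0.95 ± 0.10 (SE).

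Gzmk, the gene next to Gzma and also a tryptase, did not follow it. Gzmk read 5.05 to 5.53 over KO mice, against 4.89 to 5.55 over WT mice, with an averaged difference of 0.04 ± 0.08 (SE). The probe sets of Prf1 gave 0.04 ± 0.07 and 0.12 ± 0.07 (SE). With the second of them the 4 BALB KO mice read 5.83 to 6.19, against 5.56 to 5.82 in BALB WT mice, so BALB KO values lay just above the WT ones, while B6 and NOD mice of both genotypes overlapped.

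In total 9 of the 12 probe sets were lower in the KO mean in each of the 3 strains, against 20.4% of all probe sets, and 8 of 12 had all KO mice below all WT mice in every strain, against 3.17% of all probe sets. An averaged difference of -1 or lower was found in 5 of 12, against 2.15% of all probe sets. Since these values chose the genes, the counts are a description. The median over the 12 was -0.89, beside 0.06 over all probe sets. Sample codes in the labels form 4 runs of nearby numbers, and what a run stands for is not stated. KO and WT mice of a strain with codes in the same run could be set against each other in 5 sets. Gzma, Atp12a and each granzyme member of chromosome 14 were lower in 5 of 5. Except for Gzmf, no KO and WT mouse of a strain overlapped, so this sign was fixed in advance and only the sizes are described. The differences ran between -2.61 and -2.05 for Gzmb, -2.95 and -0.95 for Gzmc, and -2.35 and -1.22 for Atp12a. They came near 0 for Gzmf (-1.11 to -0.02), Gzmg (-0.96 to -0.12) and the first Gzmd probe set (-1.65 to -0.15).

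**Figure D2:**
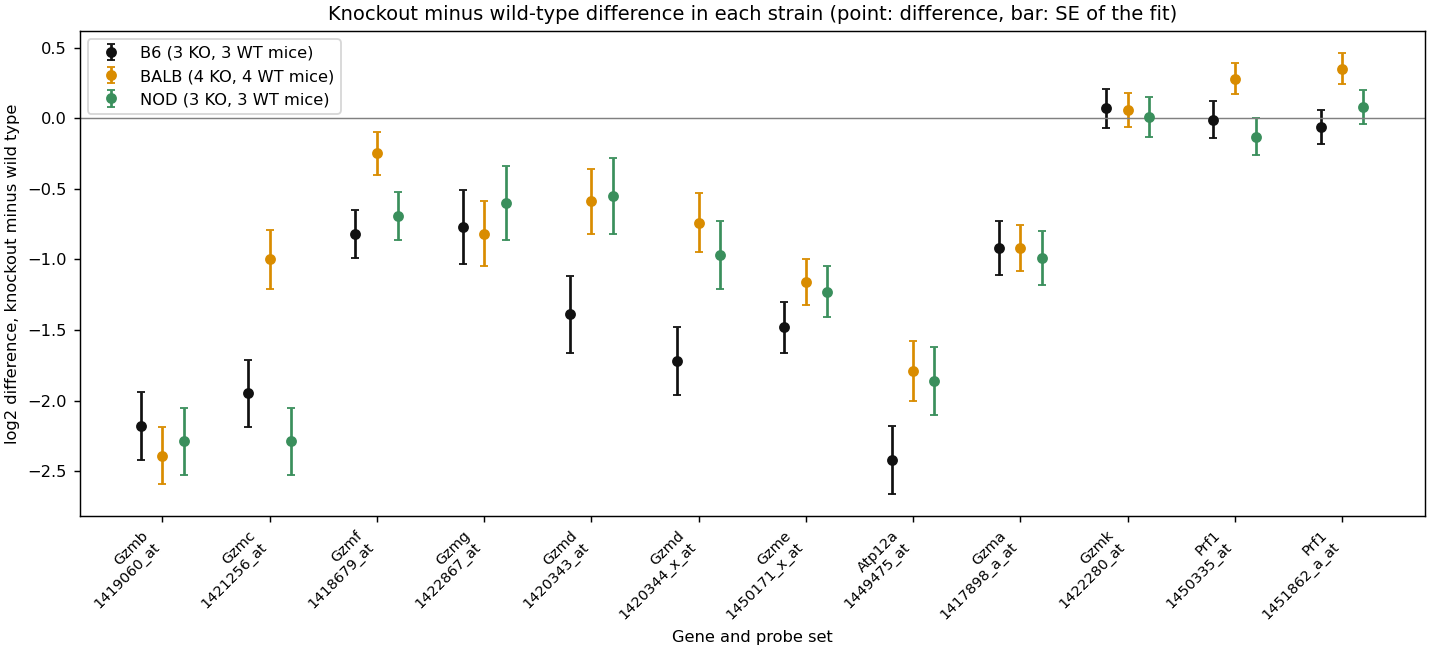
KO minus WT difference of log2 intensity (vertical axis) of each of the 12 probe sets (horizontal axis) in B6 (black), BALB (orange) and NOD (green), with the SE of the fit as bars. Gzmb and Gzma differ about equally in 3 strains, Gzmc is at -1.0 in BALB against -1.95 in B6 and -2.29 in NOD, and Gzmk and Prf1 lie around 0.

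WT mice also varied more among themselves than KO mice in most of the probe sets that were lower. Over the 3 strains the SD between mice of a group was 0.09 in KO and 0.43 in WT mice for Gzmc, and 0.07 in KO and 0.45 in WT mice for the second Gzmd probe set. It was 0.23 in KO and 0.38 in WT mice for Gzmb and 0.24 in KO and 0.38 in WT mice for Atp12a. Gzma ran the other way, with 0.29 in KO and 0.19 in WT mice. Probe sets near the low end of the scale have little room to vary, and these SDs were not tested.

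Strain differences between WT mice did not enter the choice of genes and were tested in the fit over all probe sets. Gzmc was highest in NOD WT mice (6.51 ± 0.60, SD, n = 3), lower in B6 WT mice (6.03 ± 0.04, n = 3) and lowest in BALB WT mice (5.13 ± 0.44, n = 4). NOD minus BALB was 1.38 ± 0.22 (SE; limma, adjusted p = 0.000834), with each NOD WT mouse above each BALB WT mouse, and it stayed past the test in 29 of 30 alternatives, with an adjusted p of 0.0508 when only the arrays of those groups were fitted. Within the single run of sample codes that holds both, the only NOD WT mouse, mouse 1 and the highest of its group, read 7.20. The mean of 2 BALB WT mice in that run was 5.16. BALB minus B6 was -0.90 ± 0.22 (SE; limma, adjusted p = 0.0201), and NOD minus B6 was 0.47 ± 0.24 and did not pass (limma, adjusted p = 0.292).

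The BALB minus B6 difference of Gzmc was the less steady one. It passed in 23 of 30 alternatives, whose adjusted p ran between 0.00257 and 0.094. It was lost without B6 WT mouse 2 (0.0594), without B6 WT mouse 3 (0.0718) and without BALB WT mouse 4 (0.0558), in each case as a limma adjusted p. It was also lost without the 3 B6 arrays that stood apart (0.0792) and with the run of sample codes as a block (0.0809). No run holds WT mice of both strains, so strain and run cannot be told apart there.

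Gzmf was also lowest in BALB, with WT means of 4.51 ± 0.38 in NOD (SD, n = 3), 4.60 ± 0.28 in B6 (n = 3) and 3.95 ± 0.14 in BALB (n = 4). NOD minus B6 was -0.09 ± 0.17 (SE) and did not pass (limma, adjusted p = 0.819), and BALB was below both. BALB minus B6 was -0.65 ± 0.16 (SE; limma, adjusted p = 0.0185), which passed in 26 of 30 alternatives and was lost without B6 WT mouse 3 (0.118), without BALB WT mouse 2 (0.0513), with the run as a block (0.0727) and with only those arrays fitted (0.0853). NOD minus BALB was 0.55 ± 0.16 (SE; limma, adjusted p = 0.044) and passed in only 10 of 30 alternatives, with an adjusted p of 0.247 without NOD WT mouse 1 and of 0.0644 with same-numbered mice as a block. In the run that holds both strains the only NOD WT mouse is this mouse 1, the highest of its group. It read 4.94 against a mean of 4.05 in 2 BALB WT mice, while the other NOD WT mice read 4.34 and 4.24.

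Counted over the 12 probe sets, 2 passed for BALB minus B6 (6.10% of all probe sets), 0 for NOD minus B6 (7.04%) and 2 for NOD minus BALB (6.14%), and all 4 of these calls are Gzmc and Gzmf. For Gzmb the differences were 0.17 ± 0.22 (BALB minus B6), -0.10 ± 0.24 (NOD minus B6) and -0.27 ± 0.22 (NOD minus BALB, SE), and none passed. For Atp12a they were -0.35 ± 0.23, -0.52 ± 0.24 and -0.17 ± 0.23 in the same order, and for Gzma -0.01 ± 0.18, -0.24 ± 0.19 and -0.23 ± 0.18. The second Gzmd probe set was 0.70 lower in NOD than in B6 WT mice (-0.70 ± 0.24) and did not pass (limma, adjusted p = 0.103), though it did without NOD WT mouse 3 (0.0123 in limma) and with array weights (0.0358). Gzme differed by -0.44 ± 0.17 for BALB minus B6 (limma, adjusted p = 0.151) and passed without BALB WT mouse 3 (0.0316), without B6 WT mouse 2 (0.0388) and without the 3 B6 arrays that stood apart (0.0497).

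The size of the KO difference itself was compared between strains with an F test over 2 contrasts, which 0.435% of all probe sets passed. None of the 12 probe sets passed, 0 of 12 by limma at an adjusted p under 0.05, and 3 of 12 had an unadjusted p under 0.05 (Gzmc, the second Gzmd probe set and Gzmf), against 5.12% of all probe sets. Gzmc had the lowest, with 0.00165 unadjusted and 0.172 adjusted in limma. With same-numbered mice of a strain as a block, under which 2.85% of all probe sets passed, its limma adjusted p was 0.0281. That block covers all 3 strains, though the numbers did not pair every B6 mouse. Over 29 alternatives the adjusted p ran between 0.0281 and 0.466. The KO difference of Gzmc was 0.95 ± 0.31 smaller in BALB than in B6 and wider in NOD than in BALB (a contrast of -1.29 ± 0.31, SE). The KO means of Gzmc were 4.09 in B6, 4.13 in BALB and 4.21 in NOD. These contrasts therefore mostly restate the strain differences among WT mice given above. For Gzmb the F test gave an unadjusted p of 0.801 in limma, and for Gzma 0.954.

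Genes around the chromosome 14 members are no members themselves and were tested. Of 21 protein-coding neighbours 17 had a single-gene probe set, and 6 of these fell and 1 rose in KO MECs (10.1% and 10.5% of all probe sets, limma, adjusted p under 0.05). Among all genes, each taken at its brightest probe set as here, 16.6% fell and 9.70% rose, 26.3% together. The 6 that fell are the mast cell protease genes at the other side of the granzymes, a list of 8 genes of which all 6 measured ones passed (100%). Mcpt1, a chymase of mucosal mast cells, differed by -2.17 ± 0.09 (SE; limma, adjusted p = 8.09e-12), and Mcpt2, of the same cells, by -2.14 ± 0.12 (5.71e-10 in limma). Cma1, a chymase of connective tissue mast cells, differed by -1.28 ± 0.09 (9.49e-09 in limma) and Mcpt8, a basophil protease, by -0.77 ± 0.11 (3.41e-05 in limma).

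Ctsg, which encodes the neutrophil protease cathepsin G and lies next to Gzme, differed by -0.57 ± 0.08 (SE; limma, adjusted p = 7.1e-05). For these 5 genes all 10 KO mice lay below the WT mice of their strain. Mcpt4 fell least (-0.20 ± 0.07, limma, adjusted p = 0.0442). When each mouse was left out in turn, 5 or 6 of the 6 genes passed. The block of same-numbered mice raised the count of neighbours past the test to 12 of 17, while it also raised the share of all probe sets to 37.0% and that of genes at their brightest probe set to 42.9%.

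The run of lower genes was not unbroken. Gzmn, a granzyme of the testis that lies between Gzmg and Gzmf, read 4.01 in KO and 4.10 in WT MECs and differed by -0.09 ± 0.10 (limma, adjusted p = 0.55). Rnf17, the gene after Atp12a, which is known from germ cells, differed by 0.09 ± 0.08 (0.41 in limma), and Cenpj, the centrosome gene after it, by -0.36 ± 0.14 (0.084 in limma). On the far side of Cma1, Sdr39u1 differed by 0.25 ± 0.11 and did not pass (0.123 in limma). The neighbour that rose was Gja3, a lens connexin at the edge of the region (0.22 ± 0.07, limma, adjusted p = 0.0325), but its other probe set fell by 0.38 (0.000204 in limma), so the gene has no settled direction.

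**Figure D3:**
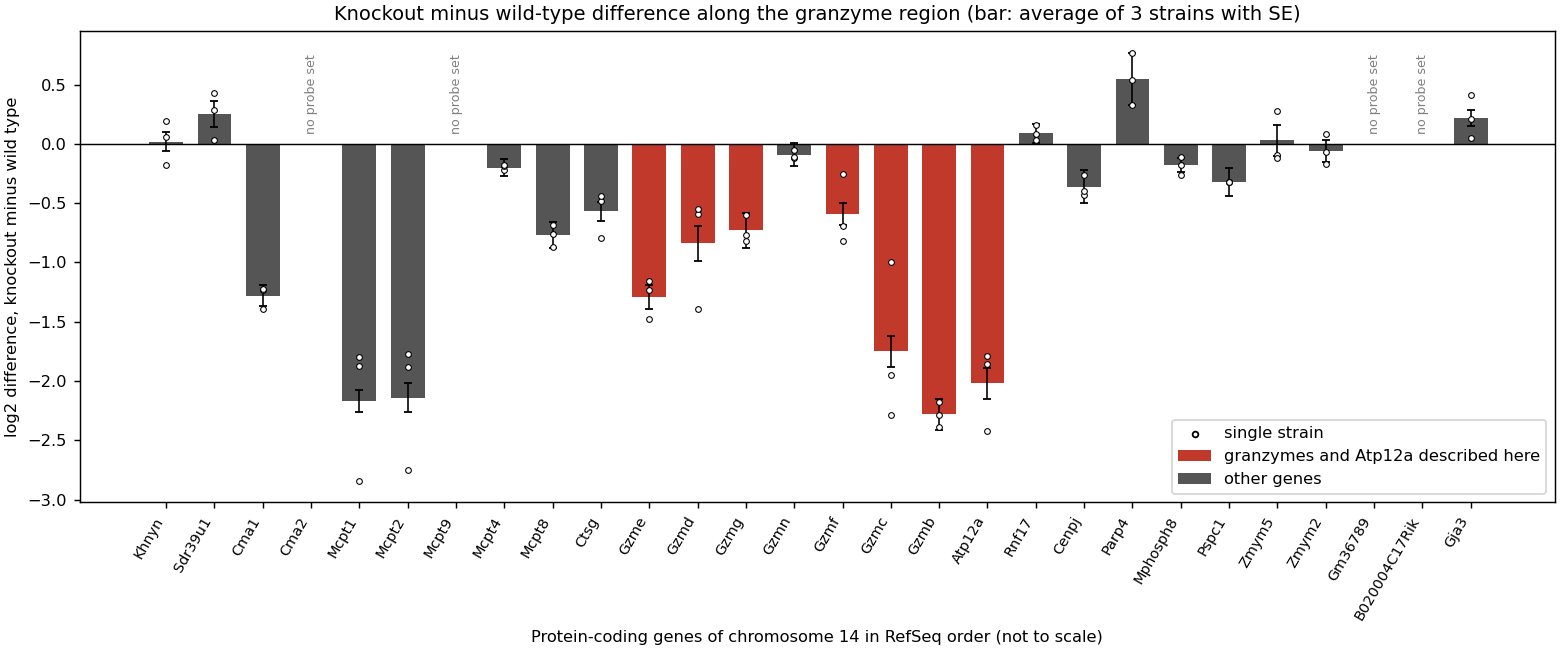
KO minus WT difference of log2 intensity averaged over 3 strains (bars, with SE) for the protein-coding genes of chromosome 14 in RefSeq order (horizontal axis, spacing not to scale), with the value of each strain as a white point. Granzymes and Atp12a are in red, other genes in grey: the measured genes Cma1 to Atp12a read -0.20 or lower except Gzmn, and those after Atp12a run between -0.36 (Cenpj) and 0.55 (Parp4, not past the test).

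Around Gzma and Gzmk calls went one way, and around Prf1 both ways. Gpx8, a peroxidase of the endoplasmic reticulum next to Gzma, fell by 0.33 (SE 0.08; limma, adjusted p = 0.00768), and Esm1, an endothelial secreted proteoglycan next to Gzmk, fell by 0.55 (SE 0.13; 0.00583 in limma). Ccno, a cyclin of multiciliated cells a few genes from Gzma, differed by -2.14 ± 0.14 (SE; 4.53e-09 in limma). In all 3 of 8 measured chromosome 13 neighbours fell and 0 rose (37.5% past the test, against 26.3% of genes). On chromosome 10, 3 of 8 measured neighbours of Prf1 fell (Unc5b -0.85, Nodal -0.79 and Pald1, the next gene, -0.39) and 2 rose (Tbata 0.61 and Sgpl1 0.47), which is 62.5% of the 8. The other probe sets of Unc5b and Nodal gave -0.19 and 0.08. Nodal is a signalling factor of the embryo, Unc5b a netrin receptor and Sgpl1 an enzyme that degrades sphingosine phosphate.

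Other genes of the granule pathway moved in both directions. Of 27 listed genes that package, activate, release, inhibit or regulate granzymes, 26 were measured, 4 fell and 4 rose (30.8%, against 26.3% of genes), and the median difference was 0.03, beside 0.06 over all probe sets. Hopx, a homeodomain factor found in cytotoxic lymphocytes and many epithelia, fell by 0.98 (SE 0.14; limma, adjusted p = 4.48e-05). Rab27a, which docks granules, differed by -0.53 (7.13e-05 in limma), but its other 3 probe sets gave 0.03 to 0.19. Eomes, a T-box factor that drives perforin and granzyme genes in lymphocytes, rose by 1.21 (SE 0.10; 9.39e-08 in limma), and its relative Tbx21 rose by 0.57 (SE 0.10; 0.000576 in limma).

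Srgn, the proteoglycan that holds granzymes in the granule, read 13.39 in KO and 13.33 in WT MECs (limma, adjusted p = 0.54). Ctsc, the protease that activates granzymes, read 11.44 in KO and 11.40 in WT MECs (0.837 in limma). Serpinb9, the inhibitor of granzyme B, rose by 0.26 (SE 0.07; 0.00786 in limma), with all 10 KO mice above the WT mice of their strain. Gzmm, a granzyme that lies outside these clusters, differed by 0.05 ± 0.05 (0.519 in limma).

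Of 17 listed partners and relatives of Atp12a among ion pumps 14 were measured, 4 fell and 0 rose (28.6%, against 26.3% of genes), and 8 passed with same-numbered mice as a block, under which 42.9% of genes passed. Fxyd3, a small regulator of the sodium pump, fell by 1.30 (SE 0.13; limma, adjusted p = 6.77e-07), Fxyd4 by 0.65 (SE 0.11) and Atp1b4 by 0.50 (SE 0.15). Atp4b, the beta subunit of the gastric proton pump, fell by 0.30 (SE 0.08; 0.00857 in limma), while its alpha subunit Atp4a differed by -0.12 ± 0.17 (0.632 in limma).

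Granzymes, perforin and mast cell proteases are also made by blood cells that the CD45- gate should remove, so markers of those cells were listed. Of 20 T and NK cell markers 18 were measured, and 2 fell and 1 rose. That is 16.7% past the test, against 20.6% of all probe sets and 26.3% of genes. With same-numbered mice as a block 6 passed, and 42.9% of all genes did. Cd3g fell by 0.92 (SE 0.11; limma, adjusted p = 5.43e-06) with all 10 KO mice below the WT mice of their strain, Cd247 fell by 0.26 (SE 0.08; 0.035 in limma) and Klrc1 rose by 0.23 (SE 0.07; 0.0382 in limma). The last 2 calls rest on 1 probe set each, since the other 3 of Cd247 gave 0.10 to 0.16 and the other of Klrc1 gave -0.20. Cd3d and Cd3e, the partners of Cd3g in the T cell receptor complex, differed by -0.21 ± 0.12 and -0.08 ± 0.08 and did not pass, nor did the NK cell receptor gene Ncr1 (0.12 ± 0.08) or the CD45 gene Ptprc (-0.51 ± 0.38, 0.361 in limma). Klrd1 of the same list was lower by more, at -0.57 ± 0.22 with -1.06 in B6, and did not pass (limma, adjusted p = 0.0798). Klrk1 differed by 0.09 ± 0.12 (0.588 in limma).

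The summed intensity of the 18 T and NK cell markers ran between 1950 and 2330 in KO and between 2290 and 2910 in WT MECs of B6. It ran between 1850 and 2690 in KO and between 1910 and 3180 in WT MECs of BALB, and between 1890 and 3760 in KO and between 2000 and 5550 in WT MECs of NOD. These ranges overlap in each strain. The mean log2 intensity of the 18 markers did not overlap in B6, with 6.41 to 6.49 in KO against 6.56 to 6.67 in WT MECs, and overlapped in BALB (6.38 to 6.69 in KO, 6.41 to 6.81 in WT) and NOD (6.36 to 7.05 in KO, 6.47 to 7.29 in WT). No array value is 0, and the part of these cells in the granzyme values was not tested.

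Of the 9 mast cell and basophil markers, all measured, 4 fell and 2 rose (66.7%, against 26.3% of genes). Ms4a2 and Fcer1a, chains of the IgE receptor, differed by -2.37 ± 0.11 and -1.44 ± 0.13 (SE; limma, adjusted p = 6.76e-11 and 1.75e-07), though the other Ms4a2 probe set gave -0.35. Tpsab1, a tryptase, fell by 0.58 and Gata2 by 0.28. Kit, the growth factor receptor of mast cells, rose by 0.56 and Hdc, which makes histamine, by 0.51. The other Kit probe set gave 0.15 and did not pass (0.182 in limma). The mast cell carboxypeptidase gene Cpa3 differed by -0.04 ± 0.09 (0.766 in limma). The bright Hdc probe set adds most to the summed intensity of the 9 markers. This sum was 5810 to 7480 in KO against 4670 to 6050 in WT MECs of B6. It was 5650 to 6850 in KO against 3740 to 5710 in WT MECs of BALB. In NOD it was 6650 to 7940 in KO against 4930 to 6900 in WT MECs. These ranges overlap in each strain. The mean log2 intensity of the 9 markers, in which each gene counts alike, was lower in all KO than in all WT mice of each strain, with 6.88 to 7.07 in KO against 7.26 to 7.46 in WT MECs of B6, 7.07 to 7.18 in KO against 7.25 to 7.70 in WT MECs of BALB, and 6.96 to 7.03 in KO against 7.35 to 7.51 in WT MECs of NOD. The drop of this mean lies mainly in Ms4a2 and Fcer1a, while the median difference of the 9 markers was -0.08. Among all single probe sets, 3.17% had all KO mice below all WT mice in every strain. The part of mast cells and basophils in the values of the granzymes and mast cell proteases was not tested.

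**Figure D4:**
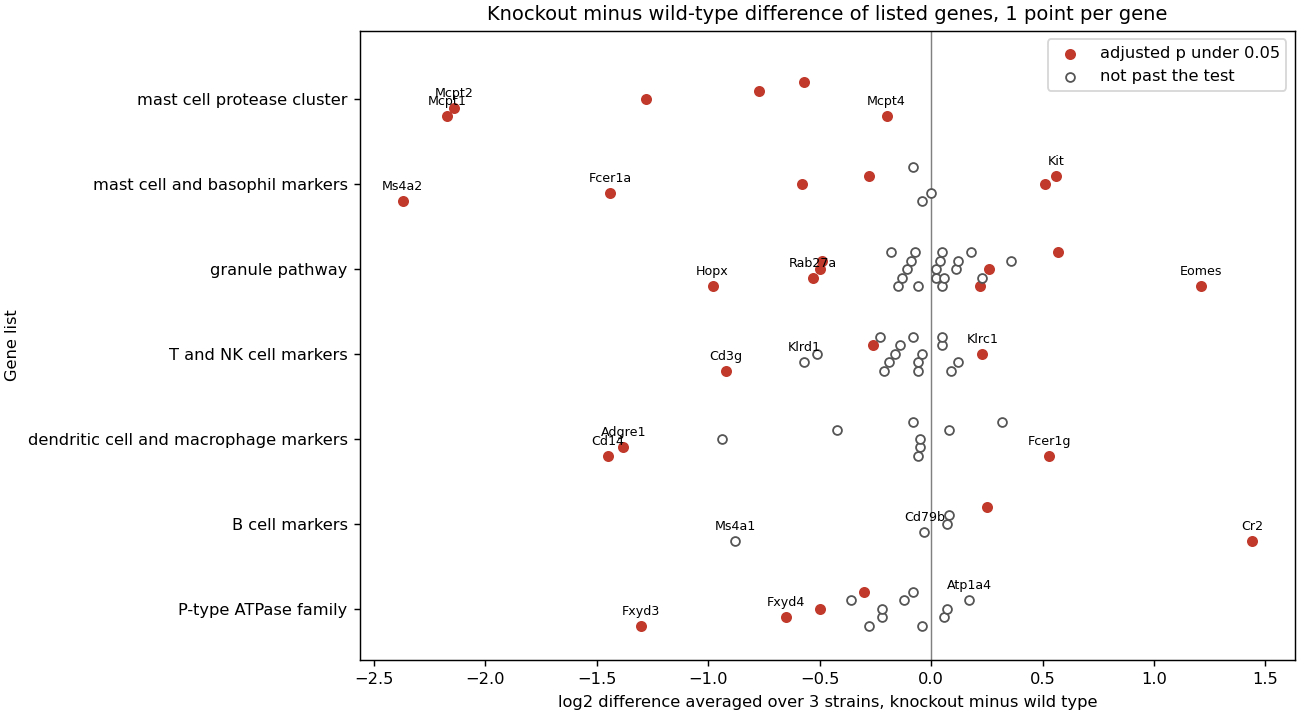
KO minus WT difference of log2 intensity averaged over 3 strains (horizontal axis), 1 point per gene, for 7 gene lists (vertical axis), filled in red where the limma adjusted p is under 0.05. All 6 measured genes of the mast cell protease cluster are below 0, while the granule pathway has 4 filled points on each side of 0 and most T and NK cell markers are open.

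Of 12 dendritic cell and macrophage markers 11 were measured, 2 fell and 1 rose (27.3%, against 26.3% of genes). With same-numbered mice as a block 6 passed, and 42.9% of all genes did. Cd14, a receptor for bacterial lipopolysaccharide, fell by 1.45 and Adgre1, the macrophage marker F4/80, by 1.38, and Fcer1g, a signalling chain of Fc receptors, rose by 0.53. The mean log2 intensity of the 11 was 7.57 to 8.0 in KO against 8.08 to 8.4 in WT MECs of B6, without overlap, and overlapped in BALB and NOD. Of 7 B cell markers 6 were measured, 0 fell and 2 rose (33.3%), the complement receptor gene Cr2 by 1.44 and Blk by 0.25. Their summed intensity overlapped in B6 and BALB and was 2480 to 2850 in KO against 1790 to 1980 in WT MECs of NOD. Their mean log2 intensity overlapped in each strain. The part of these cells in the granzyme values was not tested. In the check of the cells' own identity, the epithelial genes Epcam, Krt8 and Fezf2 read 11.67, 12.63 and 11.54 in KO and 11.88, 12.52 and 11.58 in WT MECs, and 2 of the 12 medullary markers fell (Krt5 -0.69, Krt14 -0.44) and 2 rose (Cd80 0.85, Aire 0.74), which is 33.3% beside 26.3% of genes. Of 6 cortical markers 1 fell (Enpep -1.93) and 2 rose (Tbata 0.61, Ly75 0.52), which is 50% of the 6.

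Likeness of patterns over the 20 arrays is given as a description only, since KO and WT arrays stand apart for these genes and all genes share the arrays. For Gzmb the probe sets of other genes with the highest Pearson r of log2 intensity were Cma1 (0.982), Cltrn (0.981), Cyp1a2 (0.980) and Fgb (0.976). For Gzmc they were Reg4 (0.959), Tmem45a2 (0.958), Il5 (0.946) and Slc17a2 (0.945), and for Atp12a Chodl (0.977), Ifit1bl1 (0.976), Krt4 (0.971) and Nts (0.970). Cma1 is also one of the listed chromosome 14 neighbours, but its r is nearly the same as those of Cltrn, Cyp1a2 and Fgb, which are not.

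Once the mean of each of the 6 groups was taken away, other genes came closest. These were Ackr3 (0.841), Slc51a (0.839), Ccl1 (0.837) and Farsa (0.831) for Gzmb, and Gria3 (0.863), Kdelr3 (0.850), Dph5 (0.843) and Nmt2 (0.839) for Gzmc. For Atp12a they were Spty2d1 (0.897), Pdc (0.838), Slc22a12 (0.834) and Slc23a4 (0.834). Among the members, Gzmb and Atp12a had an r of 0.94 over levels and 0.23 over these deviations, Gzmb and Gzmc 0.83 and 0.36, and Gzmc and Gzmf 0.88 and 0.53. Atp12a ranked 97 in its r with Gzmb over levels and 10572 over the deviations. The r over levels includes the gap between KO and WT mice for which the genes were chosen.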

How the data were processed

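Affymetrix mouse arrays of 20 mice were used. Per the labels' protocols RNA was extracted with Trizol, amplified in successive rounds and labelled with biotin. The deposited values are 1 intensity per probe set, made with RMA per the submitters' processing notes, and the linear scale was read from the values. Detection calls were not used here.

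Groups come from the sample titles. After 64 control probe sets of 45101 were left out, log2 intensities of 45037 probe sets were fitted with limma 3.58.1 in R 4.3.3 (lmFit, eBayes, 6 group means, 14 residual degrees of freedom), with Benjamini-Hochberg adjustment over all probe sets and a threshold of 0.05. A probe set was named where the annotation gave exactly 1 symbol (34945), and a gene outside the members was represented by its brightest probe set. Gene order and start windows are RefSeq's (GRCm38.p6), and windows were aligned pairwise.

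Named besides the members are up to 4 genes per list and neighbourhood with the largest difference past the test, the genes next to a member and the 4 most alike probe sets, and further list genes named to complete a list were chosen after their values were seen. The members and lists were chosen with earlier results of these data known. On simulated data with 200 changed probe sets the averaged contrast recovered 94.5% of differences of 1 and the F test 55%. The simulated mice varied independently, without runs or same-numbered pairs, and for the F test only BALB KO mice were changed. In the data 20.6% of probe sets passed the averaged test, so these rates need not hold there.

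Same-numbered mice of a strain correlated in their deviations in BALB (0.46 to 0.66) and NOD (0.31 to 0.67). In B6 the mice numbered 1 and 2 did (0.78 and 0.72) and those numbered 3 did not (-0.13). The numbers thus do not pair every B6 mouse. Sample codes fall into 4 runs whose meaning is not given, and 1 B6 WT mouse has no code. Results were recomputed with other scalings, without the dimmest 25% of probe sets, with 16 units added before log2, with other variance settings and array weights, with blocks, with fewer arrays and without each mouse in turn.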

Additional observations from a re-analysis of the deposited data

Results flagged for a closer look

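Among BALB WT mice, mouse 3 stood far above the other 3 for the first Gzmd probe set, with a log2 intensity of 5.0 beside 4.10, 4.03 and 3.96. The same mouse stood far above the others for Gzme, with 5.71 beside 5.16, 5.05 and 5.06. About 1 in 20 groups is marked this way by chance.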

How the results depend on the processing

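Of 1801 comparisons of a member's value or test under an alternative, 1735 counted as unchanged, 32 were no longer past the threshold, 6 came past it, 6 moved by more than the spread between mice (all with 16 units added before log2) and 22 changed sign. Unchanged means no change of sign or side of the threshold for a strain difference among WT mice, and the same side for the F test. For an averaged KO difference, which has no test, it means a shift under the spread between mice. Leaving out a mouse of another group cannot change the size of a strain difference, so part of the 1735 kept their direction of necessity. The 22 sign changes belong to 10 strain differences among WT mice, and 0 of them were past the limma test before or after the change. With array weights NOD minus BALB was 0.06 for Atp12a and 0.02 for the first Prf1 probe set, and BALB minus B6 was 0.03 for Gzma and 0.04 for Gzmk. With the run as a block NOD minus B6 was 0.05 for Gzmb, and BALB minus B6 was 0.06 for Gzmk and 0.02 for the first Prf1 probe set. Without 1 mouse at a time NOD minus BALB ran between -0.34 and 0.06 for Atp12a, between -0.45 and 0.02 and between -0.37 and 0.21 for the Gzmd probe sets, and between -0.16 and 0.01 for the first Prf1 probe set. NOD minus B6 ran between -0.19 and 0.02 for Gzmb and between -0.31 and 0.06 for Gzmf. BALB minus B6 ran between -0.06 and 0.07 for Gzma, -0.05 and 0.35 for Gzmg, -0.07 and 0.11 for Gzmk and -0.12 and 0.04 for the first Prf1 probe set. With array weights, and with same-numbered mice as a replicate block, the probe sets past the averaged test numbered 16715 and 16664 beside 9277, chromosome 14 neighbours 11 and 12 beside 7, ion pump genes 8 and 8 beside 4, and T and NK cell markers 5 and 6 beside 3 (1 with the mean of a gene's probe sets). The block also gave 6 dendritic cell and macrophage markers beside 3. For the strain difference of the KO effect, 196 probe sets became 1702 with array weights, 1284 with the block, 324 with the run as a block, 93 without the 3 B6 arrays that stood apart and 108 with B6 KO mice 2 and 3 averaged. Among WT mice, NOD minus B6 gave 6244 (array weights), 1717 (run), 1355 (only those arrays) and 2106 (without the 3 B6 arrays) beside 3172. BALB minus B6 gave 1179 (run), 938 (only those arrays) and 1713 (without the 3 B6 arrays) beside 2747, and NOD minus BALB 4745 (array weights) and 1613 (only those arrays) beside 2764. B cell markers past the test were 1 without the 3 B6 arrays beside 2. Leaving out each mouse in turn gave 109 to 223 probe sets for the strain difference (lowest without B6 KO mouse 3), 1673 to 3198 for BALB minus B6 (lowest without B6 WT mouse 2), 1973 to 3664 for NOD minus B6 and 1792 to 2949 for NOD minus BALB (both lowest without NOD WT mouse 2), 1 to 3 B cell markers and 1 to 4 T and NK cell markers. Apart from the F test of Gzmc, the block moved no member past the test, and NOD minus BALB of Gzmf no longer passed with it. The cause of these shifts was not tested. Probe sets near the low end of the intensity scale limit what Gzmd, Gzmf and Gzmg can show.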
